A study of Mus musculus with 16 samples.

Results

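Tuft cells of the mouse small intestine were followed through 10 of their genes, Pou2f3, Gfi1b, Trpm5, Gnat3, Sucnr1, Alox5, Alox5ap, Ptgs1, Il25 and Dclk1, chosen by name because they are known for tuft cells. All 10 were found by symbol among the 24421 genes of the count files, and 7 of them passed the filter on low counts that 13429 genes passed. The libraries came from wild-type C57BL6/J mice at postnatal day 6 (P6), when pups suckle, and at P36, after weaning. Each age had 4 mice, 2 male and 2 female. A segment of jejunum and a segment of ileum were taken from every mouse, and the epithelium was shaken loose after EDTA treatment and sequenced as bulk RNA, which gave 4 groups of 4 libraries (P6 jejunum, P6 ileum, P36 jejunum and P36 ileum). The regions of a mouse carry the same replicate number here. No library was enriched for tuft cells, so every value is the level in the whole epithelial preparation. In it, more tuft cells, more RNA per tuft cell and RNA of the same genes from other cells cannot be told apart.

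Tuft cells are rare chemosensory cells of the epithelium. The transcription factor Pou2f3 is needed to make them, and they sense the lumen through a pathway shared with taste cells, in which receptors act through the G protein subunit gustducin (Gnat3) and the cation channel Trpm5. Sucnr1, the receptor for succinate, is one such input, and the outputs include the cytokine IL-25, leukotrienes and prostaglandins, which act on immune cells and on the epithelium.

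Library totals ranged from 12159237 to 25947276 counts on genes. Levels are given as counts per 1000000 of the library total after that total was scaled by its TMM normalisation factor (CPM), and comparisons between genes as transcripts per 1000000 (TPM), which also divide by exon length. Epithelial markers were high in every library, with a summed level of Epcam, Vil1, Krt8, Cdh1 and Cldn7 from 3795 to 13860 CPM. The lowest sum was that of P6 ileum replicate 4, and the other libraries held 4915 CPM or more. P6 ileum replicate 2 stood apart. Its summed level of 7 smooth muscle and fibroblast genes was 381 CPM, against 5.55 to 61.5 CPM in the other 15 libraries, and that of 4 endothelial genes was 35.7 CPM, against 0.309 to 5.93. P6 ileum replicate 4 held 4.31 CPM of Espn, an actin-bundling gene of microvilli that read 60.8 CPM or more in the other P6 libraries, and 44.3 CPM of the smooth muscle and fibroblast genes. Results on the 7 tested genes that rest on these libraries are also given as ranges or fits that leave them out.

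The genes lie on 7 chromosomes of the mm10 build, as given in the files. Pou2f3 is at chr9:43123939-43205755 (minus strand), Gfi1b at chr2:28609450-28621982 (minus) and Ptgs1 at chr2:36230426-36252271 (plus). Trpm5 is at chr7:143071529-143094642 (minus), Gnat3 at chr5:17962570-18019668 (plus) and Alox5ap at chr5:149265004-149288153 (plus). Sucnr1 is at chr3:60081869-60087566 (plus), Dclk1 at chr3:55242526-55539068 (plus), Alox5 at chr6:116410071-116461178 (minus) and Il25 at chr14:54932695-54935836 (plus). The summed exon length over which reads were counted ran from 1014 bases for Alox5ap to 12995 bases for Dclk1.

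Promoter sequences from RefSeq (GRCm38.p6) matched 7 of the 10 genes, with 8 entries in all, each covering 250 bases before to 50 after a start site. POU factors bind the octamer ATGCAAAT, which was searched on both strands and occurred in 570 of 32851 promoters (1.74%). Among the promoters of the 7 genes it was found in that of Sucnr1, 48 bases before the start site. A core recognised by GFI1-type factors, AAATCAC, occurred in 1050 promoters (3.20%) and in none of these genes. The 150 bases before the start site are shown for Sucnr1, whose levels ran against those of the other genes, with the octamer in capitals, and for Trpm5, the gene at the highest TPM at P36, where neither motif was found. They lie at chr3:60081719-60081868 (plus) and chr7:143094643-143094792 (minus). A match of letters is a description of the sequence and does not show binding.
Sucnr1: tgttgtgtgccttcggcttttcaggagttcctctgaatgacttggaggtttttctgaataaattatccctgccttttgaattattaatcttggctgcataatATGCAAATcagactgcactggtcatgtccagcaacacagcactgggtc
Trpm5: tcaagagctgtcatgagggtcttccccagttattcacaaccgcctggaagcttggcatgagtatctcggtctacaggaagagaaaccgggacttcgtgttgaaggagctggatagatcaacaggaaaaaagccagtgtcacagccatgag

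The first question was how tuft cell genes change between suckling and weaned mice. Most of the 7 genes tested were low at P6 and higher at P36. In the jejunum, 6 of the 7 genes tested rose with age (Trpm5, Dclk1, Alox5, Alox5ap, Pou2f3 and Ptgs1) and Sucnr1 fell, so that 7 of 7 passed at an adjusted p under 0.05. In the ileum 5 rose (Trpm5, Dclk1, Alox5, Alox5ap and Pou2f3) and none fell. Among all 13429 genes tested, 51.6% passed in the jejunum (24.7% rising, 26.9% falling) and 55.7% in the ileum (25.5% rising, 30.1% falling), so age moved much of the transcriptome. With the study's further limit of an absolute log2 fold change over 2, jejunum kept 6 of the 7 genes and ileum kept 3, against 16.4% of all genes in each. The median log2 fold change of the 7 genes was 2.56 in the jejunum and 1.78 in the ileum, against -0.01 and -0.03 over all genes tested. A gene that is low at P6 passes the filter through its level at P36, so these counts are a description of the 7 genes and not of all 10.

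**Figure D1:**
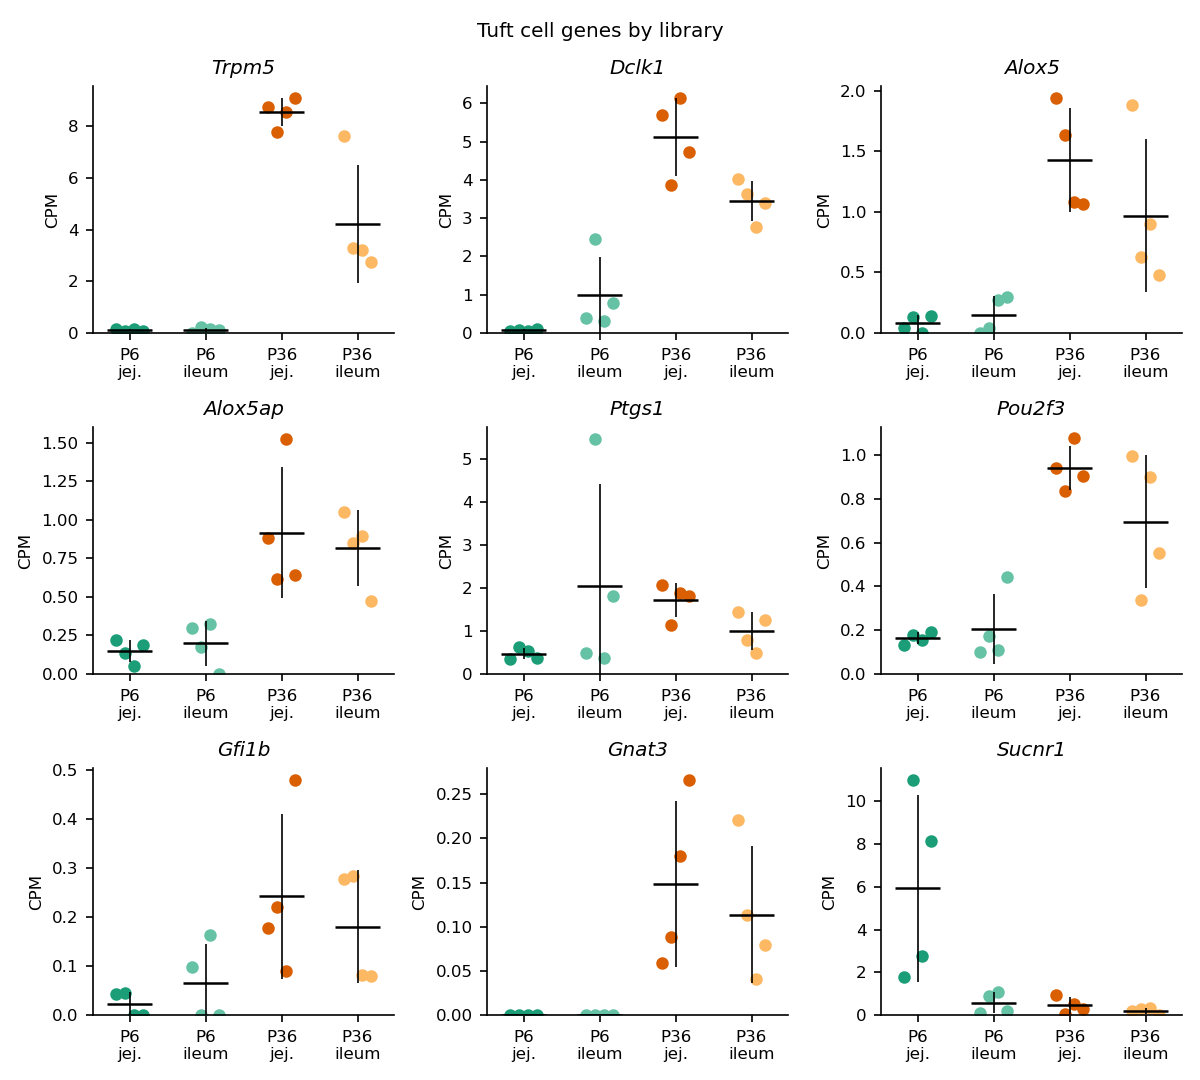
Level of 9 tuft cell genes in each of the 16 libraries, in CPM (linear axes that start at 0 and differ between genes); each point is a library, bars show the mean and thin lines the SD of the 4 libraries. Trpm5, Dclk1 and Alox5 sit near 0 in P6 jejunum and are high in all P36 jejunum libraries, and Sucnr1 shows the reverse order, while Il25, at 0 in all 16 libraries, is not drawn.

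Pou2f3, the factor that specifies tuft cells, was detected at both ages. It had 3, 4, 3 and 4 counts in P6 jejunum replicates 1 to 4 and 16, 19, 24 and 17 in P36 jejunum, a mean of 0.165 CPM ± 0.0265 (SD, n = 4) against 0.940 ± 0.101. The jejunal libraries of the ages did not overlap. In the ileum the counts were 2, 4, 2 and 9 at P6 and 18, 6, 22 and 7 at P36, and the CPM ranges overlapped because P6 replicate 4 (0.441 CPM) lay above P36 replicate 2 (0.340 CPM). The log2 fold change with age in edgeR was 2.47 ± 0.47 (SE) for jejunum (adjusted p = 0.00037) and 1.74 ± 0.47 for ileum (adjusted p = 0.00481). With 1 library left out the ileal value ran from 1.53 to 2.40. It passed under all 16 alternatives, which include the fit without P6 ileum replicates 2 and 4.

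Gfi1b, a zinc finger repressor expressed in tuft cells and in some blood cell lineages, was too low for the filter. It had 2 counts over the 4 P6 jejunum libraries and 19 over P36 jejunum, which gave a ratio of 10.0 with a 95% counting interval from 2.42 to 88.9. The jejunal libraries did not overlap, and the two-sided exact permutation test gave the smallest p that 4 against 4 allows (p = 0.0286, adjusted p = 0.0667 over 7 such tests). Its ileal counts summed to 5 in P6 and 13 in P36 libraries, with a ratio of 2.94 (0.983 to 10.5, exact permutation p = 0.229).

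Trpm5, the channel that turns receptor signals into a change of voltage, had the smallest adjusted p of the 7 in both regions. P6 jejunum replicates 1 to 4 held 4, 2, 3 and 2 counts and P36 jejunum 149, 177, 191 and 171, a mean of 0.129 CPM ± 0.0431 (SD, n = 4) against 8.56 ± 0.551. P6 ileum held 0, 5, 3 and 2 counts and P36 ileum 138, 58, 79 and 35, a mean of 0.119 ± 0.0927 against 4.23 ± 2.28. Every P36 library lay far above every P6 library in both regions. The log2 fold changes were 5.99 ± 0.50 (adjusted p = 5.76e-08) in the jejunum and 5.06 ± 0.50 (adjusted p = 4.09e-07) in the ileum. Ranked by TPM among the 18959 genes with a count, Trpm5 in the jejunum stood above 21.6% of genes at P6 and above 49.1% at P36.

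Gnat3, the alpha subunit of gustducin, was not detected at P6 in either region. The 4 libraries of P6 jejunum had 0 of 95036436 counts, which allows a level of up to 0.0352 CPM, and those of P6 ileum 0 of 75091066, which allows up to 0.0364 CPM. At P36 each library had at least 1 count, with 1, 2, 4 and 5 in the jejunum and 4, 2, 1 and 1 in the ileum. Counts and scaled library totals were summed over each group, and 3 counts were taken as the floor at P6. The observed P36 level was 4.23 times that floor for jejunum and 3.01 times for ileum. These ratios leave out the counting error of the P36 sums, 12 and 8 counts, and are not lower bounds. The exact permutation test gave p = 0.0286 in each region (adjusted p = 0.0667). A fit without the filter on low counts gave Gnat3 an adjusted p of 0.00877 in the jejunum and 0.0144 in the ileum, and Gfi1b 0.0303 and 0.254 (edgeR).

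Sucnr1, the succinate receptor, ran the other way. P6 jejunum held 41, 247, 53 and 170 counts (1.79, 11.0, 2.78 and 8.14 CPM) and P36 jejunum 16, 1, 12 and 5 (0.941, 0.0441, 0.539 and 0.266 CPM). All P6 jejunum libraries lay above all P36 jejunum libraries, with a mean of 5.93 CPM ± 4.39 (SD, n = 4) against 0.447 ± 0.386. The log2 fold change with age was -3.74 ± 0.84 (adjusted p = 0.00141). In the ileum it had 2, 21, 20 and 4 counts at P6 and 3, 5, 8 and 0 at P36, which did not pass (log2 fold change -1.42 ± 0.93, 95% interval -3.40 to 0.56, adjusted p = 0.209). The P6 jejunum libraries held 4, 2, 3 and 2 counts of Trpm5, and which cells held the Sucnr1 RNA was not tested.

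Alox5 and Alox5ap, 2 of the 3 lipid mediator genes, rose in both regions. Alox5 encodes 5-lipoxygenase and Alox5ap the membrane protein that presents arachidonic acid to it, the first steps of leukotriene synthesis. Alox5 had 1, 3, 0 and 3 counts in P6 jejunum and 33, 37, 24 and 20 in P36 jejunum, and rose by 4.03 ± 0.77 on the log2 scale (adjusted p = 0.000375). In the ileum it had 0, 1, 5 and 6 counts at P6 and 34, 11, 22 and 6 at P36, a log2 fold change of 2.67 ± 0.72 (adjusted p = 0.00519). In CPM the ages did not overlap in either region. With 1 library left out the ileal log2 fold change ran from 2.15 to 3.23. It passed under all 16 alternatives, which include the fit without P6 ileum replicates 2 and 4.

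Alox5ap had 5, 3, 1 and 4 counts in P6 jejunum and 15, 14, 34 and 12 in P36 jejunum, a log2 fold change of 2.56 ± 0.61 (adjusted p = 0.00230). In the ileum the counts were 6, 4, 6 and 0 at P6 and 19, 15, 22 and 6 at P36 (2.04 ± 0.60, adjusted p = 0.00864). The ages did not overlap in CPM here either. With 1 library left out the ileal log2 fold change ran from 1.64 to 2.37, and it passed under all 16 alternatives. Both genes are also used by leukocytes, so leukocyte markers are given with them. In P36 jejunum replicates 1 to 4, Alox5ap was at 0.882, 0.617, 1.53 and 0.639 CPM and Alox5 at 1.94, 1.63, 1.08 and 1.07. The summed level of 6 T and intraepithelial lymphocyte genes was 80.6, 7.06, 107 and 8.31 CPM there, in the same order. That of 5 B and plasma cell genes was 18.5, 5.60, 67.1 and 37.4 CPM. Replicate 3, highest in both sums, thus held the highest Alox5ap but not the highest Alox5. Over the groups the lymphocyte sum ran from 3.41 to 8.37 CPM in P6 jejunum and from 7.06 to 107 in P36 jejunum, but from 0.789 to 5.78 in P6 ileum and 2.89 to 5.02 in P36 ileum. The B and plasma cell sum ran from 0.210 to 0.335 CPM in P6 jejunum, where Ms4a1 was at 0, from 5.60 to 67.1 in P36 jejunum, from 0.922 to 2.60 in P6 ileum and from 6.85 to 48.3 in P36 ileum. Over 8 macrophage and dendritic genes the sum was 429 to 502 CPM in P6 jejunum and 9.97 to 30.3 in P36 jejunum. In P6 ileum it was 157 to 355 CPM and in P36 ileum 9.01 to 24.4. Csf1r made up most of it at P6. Itgax was higher in all P36 jejunum libraries (0.882 to 4.71 CPM against 0.367 to 0.523), and the rest overlapped between the ages there. Mast cell genes summed to 8.56 to 10.5 CPM in P6 jejunum and 9.83 to 16.0 in P36 jejunum. The part of leukocytes in the rise of Alox5 and Alox5ap was not tested.

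Ptgs1, the cyclooxygenase COX-1 of prostaglandin synthesis, rose in the jejunum and did not pass in the ileum. In the jejunum it had 8, 14, 10 and 8 counts at P6 and 35, 26, 42 and 34 at P36, with no overlap, a log2 fold change of 1.86 ± 0.67 (adjusted p = 0.0299). That call was lost without P6 jejunum replicate 1, 3 or 4 or P36 jejunum replicate 1 or 4 (adjusted p from 0.0520 to 0.0744), while the log2 fold change stayed between 1.74 and 2.03 with any 1 of the 8 libraries left out. In the ileum it had 10, 127, 7 and 37 counts at P6 and 26, 14, 12 and 16 at P36. The value of -1.06 ± 0.64 there did not pass (adjusted p = 0.174), and it turned to 0.13 without P6 ileum replicate 2, the library with 127 counts.

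Il25, the cytokine through which tuft cells call on innate lymphoid cells, had 0 counts in all 16 libraries. Over 322856443 counts this allows a level of up to 0.00934 CPM, a limit for counting error only. The gene was therefore not detectable at this depth at either age, also where Trpm5 was high.

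Dclk1, a microtubule-associated kinase long used to mark tuft cells, was among the lowest genes in P6 jejunum. It had 1, 2, 1 and 2 counts there and 97, 88, 137 and 89 in P36 jejunum, a mean of 0.0702 CPM ± 0.0260 (SD, n = 4) against 5.12 ± 1.01, and rose by 6.06 ± 0.63 on the log2 scale (adjusted p = 7.71e-07). In the ileum it had 8, 57, 6 and 16 counts at P6 and 73, 64, 68 and 43 at P36. The ileal means were 0.990 CPM ± 0.997 and 3.46 ± 0.526, with P6 replicate 2 (2.45 CPM) just under the lowest P36 library (2.78 CPM). The log2 fold change was 1.78 ± 0.47 (adjusted p = 0.00433). With 1 library left out it ran from 1.51 to 2.76. It passed under all 17 alternatives, which include the fit without P6 ileum replicates 2 and 4.

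**Figure D2:**
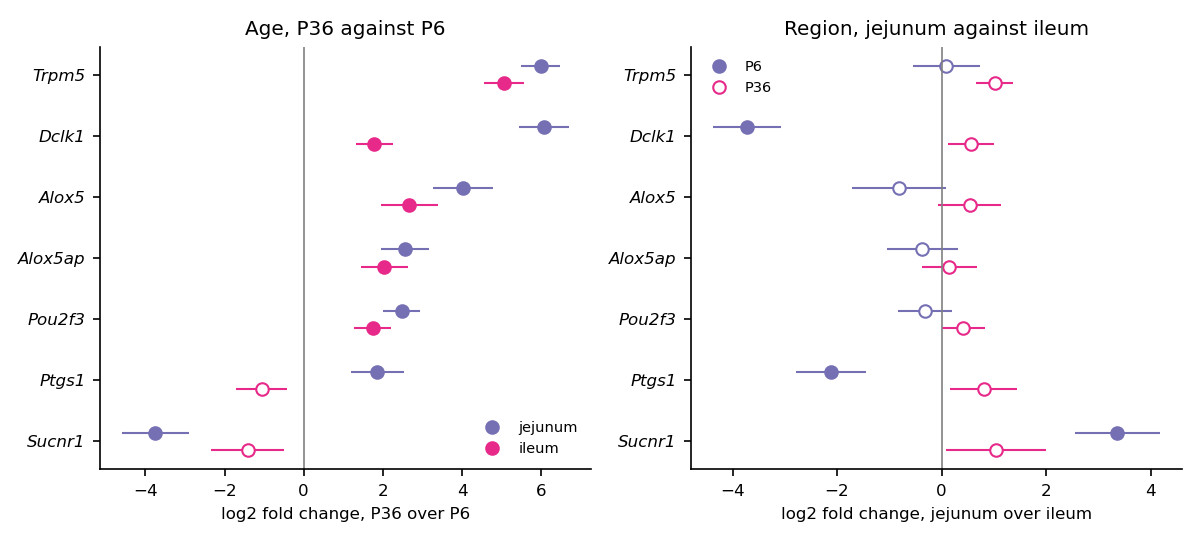
Log2 fold changes of the 7 tested genes between ages (left, P36 over P6, in jejunum and ileum) and between regions (right, jejunum over ileum, at P6 and P36); points are edgeR estimates, bars their SE, and filled points passed at an adjusted p under 0.05. Trpm5 lies at 5.99 and 5.06 with age, Sucnr1 is left of 0 in both regions, and at P36 no gene passed between regions.

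In the plot of fold changes Trpm5 and Dclk1 lie next to each other for the jejunum, at 5.99 and 6.06, and apart for the ileum, at 5.06 and 1.78, a gap between genes that was not tested. With 1 library left out the ileal values ran from 4.61 to 5.54 for Trpm5 and from 1.51 to 2.76 for Dclk1. Of the 7 genes, 7 had jejunal libraries that did not overlap between ages and 4 had ileal ones (Trpm5, Alox5, Alox5ap and Dclk1). Over all genes tested 63.8% did not overlap in the jejunum and 44.4% in the ileum. Both age comparisons use different mice at each age, and age cannot be told apart from anything else that differed between the P6 and the P36 mice.

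The second question was whether jejunum and ileum of one age differ. At P6, Dclk1 and Ptgs1 were higher in the ileum and Sucnr1 higher in the jejunum, 3 of the 7 genes, where 25.9% of all genes passed (11.1% higher in jejunum, 14.8% higher in ileum). All 3 exceeded an absolute log2 fold change of 2, as did 6.50% of all genes. The other 4 did not pass, with log2 fold changes, jejunum over ileum, of -0.31 (Pou2f3), 0.09 (Trpm5), -0.82 (Alox5) and -0.37 (Alox5ap). At P36 none of the 7 passed (edgeR), where 16.1% of all genes passed. Trpm5 alone had an unadjusted p under 0.05 at P36, and DESeq2 called it.

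Sucnr1 in P6 jejunum was 10.4 times its level in P6 ileum by mean CPM, and no libraries overlapped. The log2 fold change was 3.37 ± 0.81 (adjusted p = 0.00607), and within the 4 mice the difference in log2 CPM was 3.25, 3.49, 1.28 and 4.81. It kept its call under all 18 alternatives, with adjusted p from 0.000218 to 0.0282. The P6 jejunum values fell into a low pair, replicates 1 and 3, and a high pair, replicates 2 and 4, and the titles of the mice in each pair share a stem whose meaning the labels do not give. The mean was 2.29 CPM in the first pair and 9.58 CPM in the second, while the ileal means were 0.591 and 0.550 CPM. Jejunum exceeded ileum within both pairs, by 2.26 and 4.15 in log2 CPM. The pairs also parted in the summed level of 5 Paneth cell genes, 811 and 573 CPM in P6 jejunum replicates 1 and 3 against 41.7 and 26.7 in replicates 2 and 4. In the first pair most of that sum was Itln1, which ran from 4.36 to 782 CPM over P6 jejunum. Lyz1 and Defa17 did not part there, with means of 8.9 and 4.7 CPM in the first pair and 9.6 and 4.3 in the second. The sum also parted in P6 ileum, at 662 and 470 CPM in replicates 1 and 3 against 54.3 and 66.3 in replicates 2 and 4. Itln1 ran from 8.09 to 620 CPM over P6 ileum. Defa17 went the other way there, at 6.40 to 8.93 CPM in replicates 1 and 3 against 10.3 to 18.2 in replicates 2 and 4. Lyz1 was at 18.9 to 20.3 CPM in the first pair and 16.9 to 17.7 in the second. The part of Itln1 in the Sucnr1 values was not tested.

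**Figure D3:**
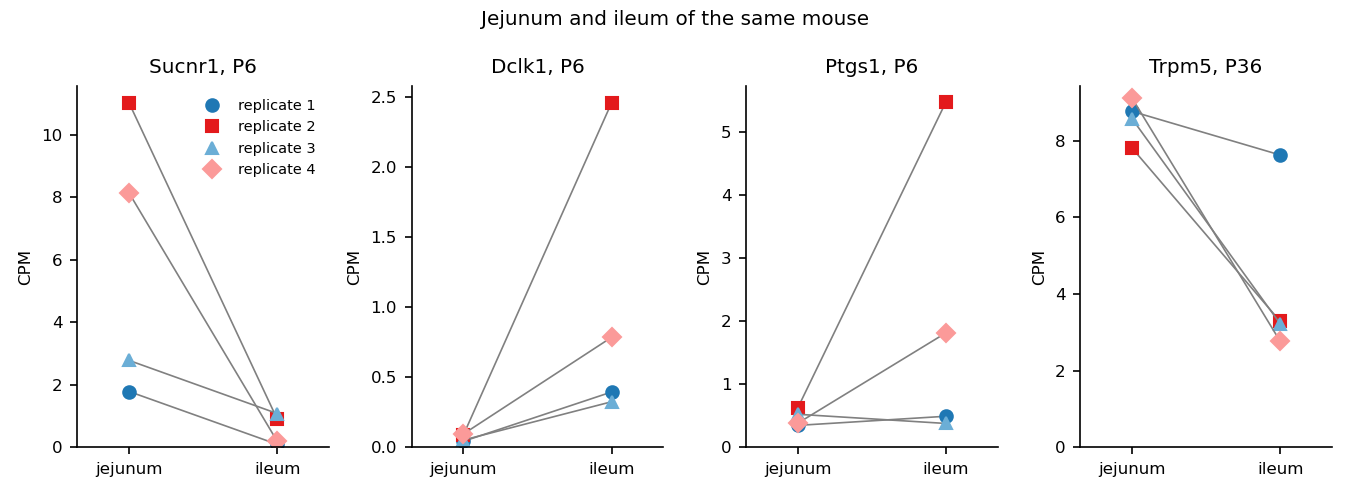
Levels in CPM (linear axes from 0) of Sucnr1, Dclk1 and Ptgs1 in the 4 P6 mice and of Trpm5 in the 4 P36 mice, with a line joining jejunum and ileum of the same mouse. Sucnr1 falls and Dclk1 rises towards the ileum in all 4 P6 mice, Ptgs1 rises mainly in replicates 2 and 4, and Trpm5 is lower in the ileum of all 4 P36 mice, least so in replicate 1.

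Dclk1 at P6 showed the opposite order, with 1, 2, 1 and 2 counts in the jejunum and 8, 57, 6 and 16 in the ileum and no overlap. Its mean in the ileum was 14.1 times that in the jejunum. The log2 fold change, jejunum over ileum, was -3.72 ± 0.64 (adjusted p = 0.000513), and the within-mouse differences in log2 CPM were -1.92, -3.83, -1.46 and -2.21. Their mean was -1.69 in replicates 1 and 3 and -3.02 in replicates 2 and 4, the pairs that share a title stem. The call held under all 18 alternatives, and the value was -2.74 without P6 ileum replicate 2. The jejunal end of this comparison rests on 6 counts over 4 libraries.

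Ptgs1 at P6 had 8, 14, 10 and 8 counts in the jejunum and 10, 127, 7 and 37 in the ileum, so the high ileal mean came from replicates 2 and 4. The mice of these replicates share a title stem. The mean of jejunum minus ileum in log2 CPM was -2.48 in that pair and -0.036 in replicates 1 and 3. The log2 fold change was -2.11 ± 0.67 (adjusted p = 0.0297) in the fit without the mouse. With the mouse as a block it was -1.55 (adjusted p = 0.0789), without P6 ileum replicate 2 it was -0.93 (adjusted p = 0.214), and without replicates 2 and 4, a choice made after seeing the data, it was 0.07 (adjusted p = 0.934).

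P6 ileum replicates 2 and 4, highest in Dclk1 and Ptgs1 at P6, also had the highest sums of smooth muscle and fibroblast genes there. Replicate 4 was not high in every stromal marker. Its Col1a1 was at 1.13 CPM, within the 0.574 to 3.25 of the other 6 P6 libraries. Its endothelial sum was 5.39 CPM, against 5.93 in P6 jejunum replicate 2. P6 ileum replicate 2 held 80.4 CPM of Myh11, the smooth muscle myosin, against 0.0542 to 0.223 CPM in the 6 P6 libraries other than ileum replicates 2 and 4, and 105 CPM of Col3a1 against 2.15 to 11.7. With group means removed, Dclk1 and Ptgs1 had a correlation of 0.934 over the 16 libraries, 0.854 without P6 ileum replicate 2 and 0.707 without replicates 2 and 4. These are descriptions, since libraries of 1 mouse share their source. Dclk1 was also above the jejunum in P6 ileum replicates 1 and 3 (0.395 and 0.325 CPM against 0.0436 to 0.0957), where the smooth muscle and fibroblast sum was 23.3 and 20.5 CPM against 5.55 to 18.1 in P6 jejunum. The part of these markers in the Dclk1 and Ptgs1 values was not tested, nor was that of the title stem shared by replicates 2 and 4.

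**Figure D4:**
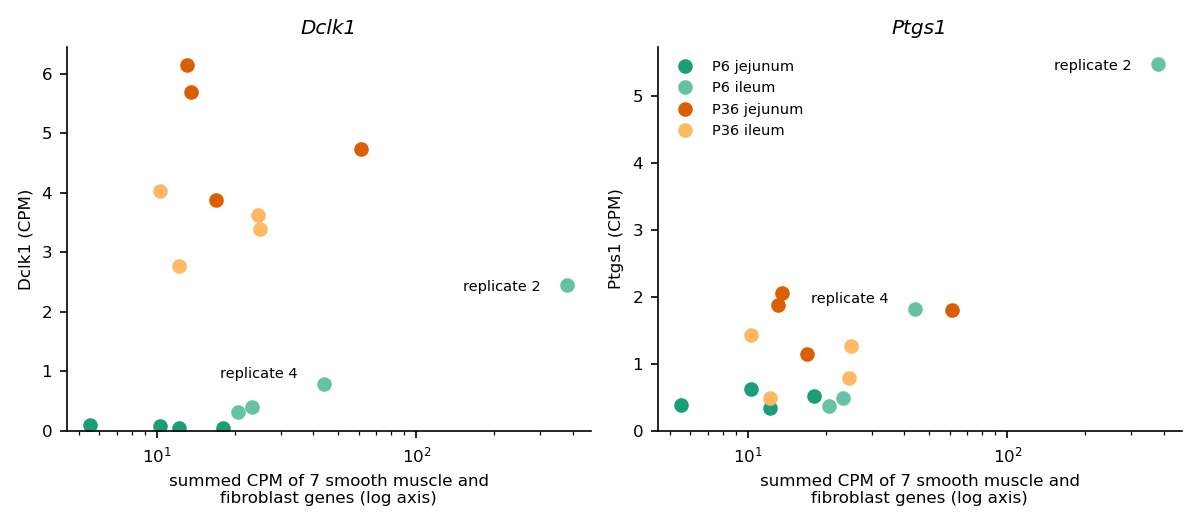
Dclk1 (left) and Ptgs1 (right) in CPM against the summed CPM of 7 smooth muscle and fibroblast genes (log axis) in the 16 libraries, coloured by group. P6 ileum replicates 2 and 4 hold the highest Dclk1 and Ptgs1 of the P6 libraries and the highest sums, 381 and 44.3 CPM, while the P36 libraries reach 2.78 to 6.15 CPM of Dclk1 at sums of 10.3 to 61.5.

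At P36 the mean of every tested gene was higher in the jejunum, and none passed. Trpm5 came closest, at 8.76, 7.81, 8.57 and 9.11 CPM in the jejunum and 7.63, 3.29, 3.22 and 2.77 in the ileum, with no overlap. Its log2 fold change was 1.01 ± 0.36 (95% interval 0.25 to 1.78, adjusted p = 0.0698, edgeR). Without P36 ileum replicate 1, the high ileal library, the value was 1.46 (adjusted p = 0.00737). By overlap, 1 of the 7 genes was separate at P36 and 2 at P6 (Sucnr1 and Dclk1), against 26.9% and 30.1% of all genes tested. The 95% interval at P36 ran from -0.74 to 1.82 on the log2 scale for Alox5 and from -0.47 to 1.29 for Pou2f3, and differences within these intervals are not excluded by the data.

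The difference between regions was then compared between ages. Dclk1 passed, with an interaction of -4.29 ± 0.79 on the log2 scale (adjusted p = 0.00267), where 8.69% of all genes passed and 5.01% with this sign: it was lower in jejunum than in ileum at P6 (-3.72) and not so at P36 (0.57). Ptgs1 had the next value in size, -2.92 ± 0.93, and did not pass (adjusted p = 0.0646). For Trpm5 the interaction was -0.92 ± 0.77 (adjusted p = 0.505) and for Sucnr1 2.33 ± 1.27 (adjusted p = 0.294).

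Per length, the order of the genes changed with age. In P6 jejunum Sucnr1 led at 7.40 TPM ± 5.30 (SD, n = 4), followed by Ptgs1 at 0.328 and Alox5ap at 0.288, and these 2 overlapped. Trpm5 (0.0592 TPM), Alox5 (0.0550) and Gfi1b (0.0235) each overlapped with the next gene in the order, and Dclk1 was at 0.0107 TPM. In P36 jejunum Trpm5 led at 3.62 TPM ± 0.160 and did not overlap with Alox5ap at 1.68 ± 0.807. Below Alox5ap, Ptgs1 (1.11), Alox5 (0.935), Dclk1 (0.729), Pou2f3 (0.692), Sucnr1 (0.521), Gfi1b (0.244) and Gnat3 (0.234) followed, each overlapping with its neighbours. In P36 ileum Trpm5 (1.84 TPM) and Alox5ap (1.56) overlapped. In P6 ileum Ptgs1 was first at 1.85 TPM ± 2.06 and Trpm5 last of the detected genes at 0.0717.

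Among pairs of the 7 genes, correlations over the 16 libraries with group means removed ran from -0.453 (Pou2f3 with Alox5ap) to 0.934 (Dclk1 with Ptgs1), with a median of 0.262 over 21 pairs. Trpm5 had 0.293 with Pou2f3 and 0.420 with Alox5. Within groups most of these genes thus varied only loosely together, at counts that were often under 40 in a library. The genes outside the 10 whose levels ran closest to Trpm5 by this measure were Spry2 (0.819), Trim80 (0.814), Il15ra (0.779), Tekt2 (0.777), Pvr (0.776), Tnfaip8l2 (0.767), Smlr1 (0.731), Magee1 (0.714), Rps6ka5 (0.711) and Pim1 (0.705). For Pou2f3 they were Uvrag (0.916), 1600012H06Rik (0.914), Sgk3 (0.908), Atg4a (0.905) and Brip1os (0.903). Trim80 and Tekt2 averaged 0.440 and 0.499 CPM. All these genes were picked as the highest among the 13429 tested, a choice that by itself yields high values. None of these is in the wider tuft cell list described next, whose 36 tested genes had correlations with Trpm5 from -0.363 to 0.529 (median 0.0467).

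A wider list of 46 further genes associated with tuft cells was written from general knowledge. Of these 45 were found and 36 tested. With age, 26 passed in the jejunum, 20 of them rising, where 51.6% of all genes passed and 24.7% rose. In the ileum 21 passed, 18 of them rising, where 55.7% of all genes passed and 25.5% rose. The median log2 fold change of the 36 was 1.63 in the jejunum and 1.09 in the ileum, against -0.01 and -0.03 over all genes tested. Genes such as Rgs13 and 1810046K07Rik, at 0 or 1 count in every P6 library, passed the filter through P36, so the counts are a description. Several genes of this list, such as Vav1, Fyb, Ptprc, Inpp5d, Spib and Ptpn6, are also expressed by leukocytes, whose marker sums are given above, and their part was not tested.

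The genes with the smallest adjusted p that rose were signalling and cytoskeletal ones. Plcg2, a phospholipase C, went from 60, 42, 27 and 47 counts in P6 jejunum to 687, 931, 1106 and 864 in P36 jejunum, a log2 fold change of 4.43 ± 0.23 (adjusted p = 2.38e-10). In the ileum it went from 60 to 95 counts at P6 to 549 to 953 at P36 (3.45 ± 0.21, adjusted p = 2.44e-09). Avil, the actin-binding advillin, had 6 to 10 counts in P6 jejunum and 87 to 111 in P36 jejunum, and rose by 3.63 ± 0.28 there and 2.51 ± 0.27 in the ileum. Lrmp rose in the jejunum by 5.57 ± 0.51 and Vav1, a guanine nucleotide exchange factor, in the ileum by 2.99 ± 0.32. Each of the P36 libraries lay above each P6 library of its region for these genes.

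Some genes of the list fell. Hpgds, a prostaglandin D synthase, had 2215 to 3667 counts in P6 jejunum and 8 to 28 in P36 jejunum, a log2 fold change of -7.16 ± 0.38 (adjusted p = 3.43e-10), and fell by 7.63 in the ileum on the log2 scale (adjusted p = 3.71e-10). Nrep had 949 to 1562 counts in P6 jejunum and 10 to 22 in P36 jejunum (-6.16 ± 0.38), with -4.83 ± 0.35 in the ileum. Ltc4s, which makes leukotriene C4 downstream of Alox5, fell in the jejunum by 1.52 (adjusted p = 0.0154), from 94 to 168 counts at P6 to 29 to 58 at P36. Krt18, a keratin of simple epithelia, Ptpn6, a phosphatase, and Sox9, a crypt transcription factor, fell in the jejunum by 1.16, 0.84 and 0.64. In the ileum Il4ra, a subunit of the IL-4 and IL-13 receptors, fell by 1.34 (adjusted p = 0.00154). At P6 Hpgds had 2065 counts or more in every library, where Trpm5 had 5 or fewer.

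**Figure D5:**
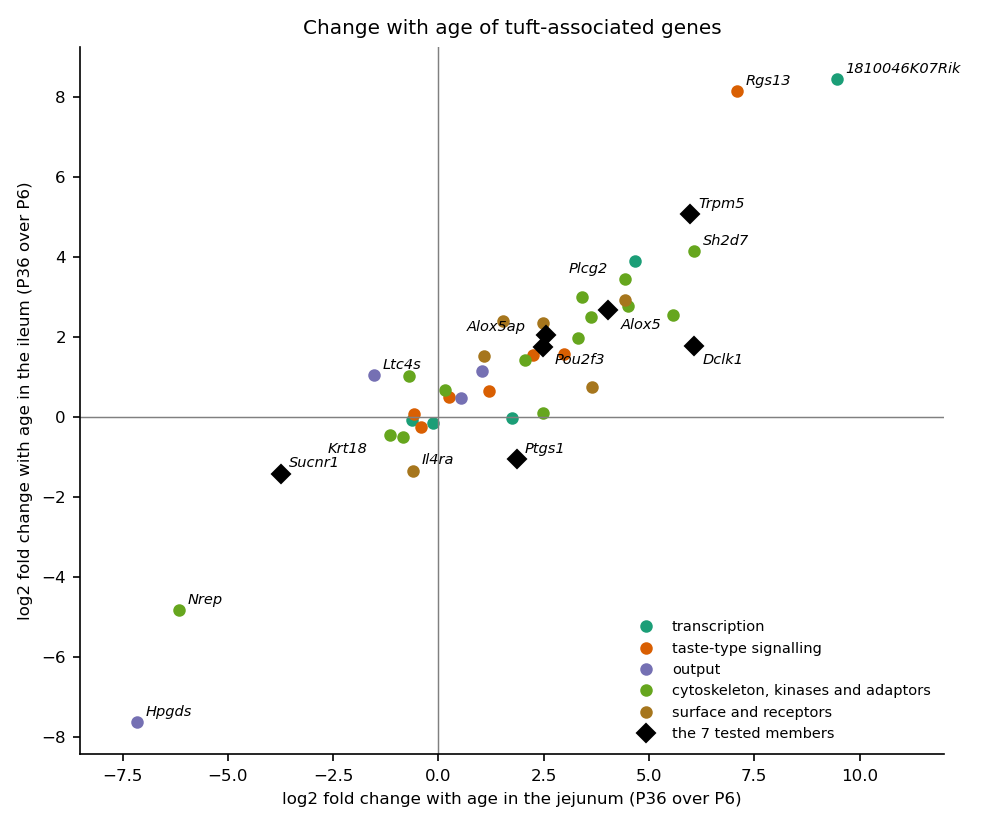
Log2 fold change with age (P36 over P6) in the jejunum (horizontal) and ileum (vertical) for the 36 tested genes of the wider list, coloured by role, and the 7 tested members (black diamonds). Most genes lie to the upper right, Hpgds (-7.16 and -7.63) and Nrep (-6.16 and -4.83) to the lower left, and Dclk1 lies to the right of and below Trpm5.

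Between regions, 14 of the 36 passed at P6, where 25.9% of all genes passed. Of these, 3 were higher in the jejunum (Ltc4s, Matk and Il13ra1) and 11 in the ileum, against 11.1% and 14.8% of all genes. Without P6 ileum replicates 2 and 4, Ptprc, Runx1, Fyb and Vav1, all higher in the ileum with all libraries, did not pass (adjusted p from 0.0519 to 0.322), while Cd24a, Il4ra, Itpr3 and Krt18 did, so the count was again 14. Ltc4s had 168, 126, 94 and 164 counts in P6 jejunum and 3, 13, 2 and 0 in P6 ileum, a log2 fold change of 4.88 ± 0.60 (adjusted p = 2.34e-05). Matk, a tyrosine kinase, was higher in the jejunum by 2.60 ± 0.49 and Il13ra1, an IL-13 receptor subunit, by 0.72 ± 0.20. Rgs2, a regulator of G protein signalling, Kctd12 and Ptges, a prostaglandin E synthase, were higher in the ileum, with log2 fold changes of -2.17, -1.26 and -2.05.

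At P36, 10 of the 36 passed between regions, where 16.1% of all genes passed, 3 higher in the jejunum (Ltc4s, 1810046K07Rik and Fyb) and 7 in the ileum. Without P36 jejunum replicate 1 the count was 5. Ptges (-2.15 ± 0.35, adjusted p = 0.000493) and Rgs2 (-1.45 ± 0.26) led those higher in the ileum, followed by Krt18 (-1.13) and Pla2g4a, a phospholipase that frees arachidonic acid (-1.39). Ltc4s was again higher in the jejunum, with 41, 29, 58 and 50 counts against 14, 7, 7 and 4 (2.32 ± 0.55, adjusted p = 0.00880). 1810046K07Rik had 336, 257, 209 and 191 counts in P36 jejunum and 106, 22, 10 and 14 in P36 ileum (2.55 ± 0.63, adjusted p = 0.0154). It had 1 count over the 8 P6 libraries. Ptges and Rgs2 thus had the same direction at both ages, as did Ltc4s with the reverse sign. The interaction of region and age passed for Fyb (-2.39 ± 0.47), Lrmp (-3.02 ± 0.64) and Plcg2 (-0.98 ± 0.28). These are 3 of 36 genes, where 8.69% of all genes passed, and the count ran from 2 to 8 with 1 library left out, the highest without P6 ileum replicate 4.

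Tuft cells act in a circuit of type 2 immunity, and 11 genes of it were counted apart, of which 6 were tested. The cytokines Il4, Il5 and Il13 had 1, 2 and 0 counts over all 16 libraries. Il33, an alarmin, was high in P36 jejunum, with 1071, 937, 1098 and 928 counts against 20, 20, 16 and 46 in P6 jejunum (log2 fold change 5.40 ± 0.62, adjusted p = 2.17e-06). It had 142, 53, 28 and 25 in P36 ileum, so that it was also higher in the jejunum than in the ileum at P36 (3.86 ± 0.56, adjusted p = 0.000211). Retnlb, a goblet cell product raised in type 2 responses, rose with age by 5.74 ± 0.95 in the jejunum and by 9.07 ± 1.24 in the ileum, from 3 counts over the 4 P6 jejunum libraries and 0 over those of P6 ileum, so the second value is not a bound.

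Il1rl1, the receptor for IL-33, and Rora, a nuclear receptor, were lower at P36. Il1rl1 had 40, 178, 37 and 249 counts in P6 ileum and 0, 2, 2 and 2 in P36 ileum (-6.06 ± 0.93, adjusted p = 4.45e-05), and Rora changed by -5.47 ± 0.43 there and by -2.98 ± 0.42 in the jejunum. Areg, an epidermal growth factor receptor ligand, fell by 2.53 in the jejunum, and Stat6 rose by 0.44 and 0.43. At P6, Il1rl1 (-2.92 ± 0.71) and Rora (-3.16 ± 0.36) were higher in the ileum, where replicates 2 and 4, the libraries that stood apart, held the highest counts of both. Ptprc, a marker of leukocytes, was at 4.74 and 8.09 CPM in these 2 libraries, against 0.567 to 2.61 in the 6 other P6 libraries, and its part in the values was not tested. Without them Il1rl1 did not pass (-1.37 ± 0.66, adjusted p = 0.144) and Rora did (-2.78 ± 0.37, adjusted p = 8.03e-05). Areg (2.52 ± 0.38) and Stat6 (0.37 ± 0.13) were higher in the jejunum at P6, and Stat6 did not pass without them (adjusted p = 0.198). The interaction passed for Il33 (-4.64), Areg (3.11) and Rora (-2.49).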

How the data were processed

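The members, gene lists and tests were chosen with earlier results of these data known. The submitters' processing notes name Trimmomatic 0.38, STAR 2.5.3 and featureCounts (Subread 1.6.3), and the mm10 build. The paper gives another STAR release. The authors deposited 1 file of raw counts per library, counted by gene on exons with strand taken into account, and these counts were used as deposited. No replicate was pooled.

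CPM were taken over library totals multiplied by their TMM factors, and TPM from exon lengths in the files. All 16 libraries entered 1 edgeR 4.0.16 quasi-likelihood fit in R 4.3.3, with 4 group means, filterByExpr, TMM factors and Benjamini-Hochberg adjustment over 13429 genes. A gene passed at an adjusted p under 0.05. SE were derived from the F statistic. The fit was tested on simulated data. Members under the filter had two-sided exact permutation tests on TMM-scaled CPM, and intervals and floors (95%, 3 counts) cover counting error only.

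Same-mouse libraries paired: their deviations from group means correlated at 0.156 to 0.395 in all 8 mice, and the labels give both regions per mouse. The mouse as a block was therefore an alternative. Others were RLE factors (median of ratios), library totals, 2 other filters, only the groups compared, sex, a robust prior, DESeq2 1.42.0, the study's added limit of 2 on the absolute log2 fold change, and each library left out. P6 ileum replicates 2 and 4 were also left out together, for the members and the wider lists, chosen after seeing the data.

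From the wider lists, the text names the 5 called genes with the smallest adjusted p per comparison, and any that went against most called ones. The closest genes to Trpm5 (10) and Pou2f3 (5) were ranked by Pearson's r of log2 CPM (prior count 2) with group means removed. Further marker lists gave ranges of summed CPM, from P6 to P36 and over both regions: 112 to 244 for enteroendocrine, 1745 to 18880 for goblet, 26.7 to 14930 for Paneth, 235 to 938 for stem and crypt, 8.56 to 36.2 for mast, 0.176 to 1.68 for erythroid, 0.529 to 19.7 for neuron and glia, 1.03 to 73.1 for megakaryocyte and platelet, and 9.01 to 502 for macrophage and dendritic genes, the last high at P6 through Csf1r.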

Additional observations from a re-analysis of the deposited data

Results flagged for a closer look

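Trpm5 in P36 ileum replicate 1 lay far from the other 3 libraries of its group. It was at 7.63 CPM, the next library at 3.29 and the lowest at 2.77, a gap of 0.893 of the group's range. Chance alone puts about 1 in 20 groups of 4 past the limit used, and 33 groups were examined. Without this library the difference of Trpm5 between P36 jejunum and P36 ileum passed (log2 fold change 1.46, adjusted p = 0.00737, edgeR). In the same library 1810046K07Rik had 106 counts, against 10 to 22 in the other P36 ileum libraries, Il33 142 against 25 to 53, and Alox5 34 against 6 to 22. Dclk1 (4.03 CPM against 2.78 to 3.63) and Pou2f3 (0.995 against 0.340 to 0.898) lay closer to the others. So did Alox5ap (1.05 against 0.475 to 0.898) and Ptgs1 (1.44 against 0.490 to 1.27). Gnat3 had 4 counts against 1 or 2. Gfi1b (0.276 CPM against up to 0.283) and Sucnr1 (0.166 against up to 0.327) were not highest there.

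The regional difference of Dclk1 differed between the ages, with a tested interaction of -4.29 on the log2 scale (adjusted p = 0.00267, edgeR). It was lower in the jejunum in all 4 P6 mice and higher in the jejunum in all 4 P36 mice, by 0.49, 0.09, 1.13 and 0.45 in log2 CPM. The call held under every alternative run, including those that left out P6 ileum replicate 2, and replicates 2 and 4 together.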

How the results depend on the processing

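Of 839 values recomputed under alternatives, 792 kept their direction and their side of the threshold (counts: stayed within 1.5 times), 12 lost the call, 7 gained it, 16 counts moved further and 12 values changed sign. Limits are the low counts, 4 mice per age, stromal RNA in P6 ileum replicate 2 and the low sum of epithelial markers in P6 ileum replicate 4. Library totals in place of TMM shifted the median log2 fold change of all genes by -0.28 between regions at P6, by -0.14 at P36 and by -0.15 in the interaction. The share of called genes higher in the jejunum then went from 42.9% to 18% at P6 and from 51.5% to 37.9% at P36, and positive interactions from 42.3% to 24.2%. RLE factors shifted no median by more than 0.03.

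Among the members, the call in the jejunum with age covered 4 genes, and in the ileum 2, with a filter of a mean CPM of at least 1. With the added limit on fold size 3 members passed in the ileum with age. At P36, 1 member (Trpm5) passed between regions in the fit of only those groups and with DESeq2. For the interaction, 2 passed (Dclk1 and Ptgs1) with library totals and with DESeq2. For the wider list the added limit left 6 genes between regions at P6 and 3 at P36. The wider list had 6 genes in the interaction with DESeq2, and 7 without P6 ileum replicates 2 and 4. With 1 library left out, members called ranged from 2 to 3 between regions at P6, from 0 to 1 at P36, from 6 to 7 with age in the jejunum and from 1 to 2 in the interaction, and stayed at 5 with age in the ileum. The 1 call at P36 came without P36 ileum replicate 1. The wider list ranged from 11 to 16 between regions at P6, from 5 to 11 at P36, from 25 to 26 with age in the jejunum, from 20 to 23 in the ileum and from 2 to 8 in the interaction. The wider list fell to 5 at P36 without P36 jejunum replicate 1, and rose to 8 in the interaction without P6 ileum replicate 4. The members' interaction count was 2 without P6 ileum replicate 1 or 3.

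Values that changed sign were near 0 or rested on few libraries, and none of them passed the threshold after the change. Trpm5 between regions at P6 was -0.18 with library totals and ranged from -0.32 to 0.57 with 1 library left out. Pou2f3 between regions at P6 ranged from -0.56 to 0.34, and without P6 ileum replicates 2 and 4 it was 0.61, with an interaction of 0.19. Alox5ap between regions at P36 ranged from -0.19 to 0.30. Ptgs1 with age in the ileum ranged from -1.38 to 0.13 with 1 library left out. It was 0.071 between regions at P6, and 1.15 with age in the ileum (adjusted p = 0.0521), without P6 ileum replicates 2 and 4. Ptgs1 between regions at P6 also lost its call without each P6 jejunum library in turn (adjusted p from 0.0515 to 0.0796) and in the fit of only the groups compared (adjusted p = 0.107). The cause was not tested.

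With the mouse as a replicate block, Ptgs1 between regions at P6 was -1.55 (adjusted p = 0.0789) and lost its call, so that 2 members passed. The block changed no other call among the members, and 16, 10 and 4 genes of the wider list passed at P6, at P36 and in the interaction.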
